A study of Mus musculus with 6 samples.

Results

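The genes described are the core of the TGF-beta system: the ligands Tgfb1, Tgfb2 and Tgfb3, the receptors Tgfbr1, Tgfbr2 and Tgfbr3, and the latent TGF-beta binding proteins Ltbp1, Ltbp2, Ltbp3 and Ltbp4. They were chosen by gene symbol, and all 10 were found among the 22984 genes of the deposited expression table. The series compared BMSCs of the mouse (mesenchymal stem cells of bone marrow, which grow attached to the dish) of genotype Grx2+/+ (wild type, 3 libraries) and Grx2-/- (knockout, 3 libraries). The design text calls them O-BMSCs without expanding the prefix. The sources used here do not give strain, age, culture conditions or the way the knockout was made. Nor do they say if the replicates were different mice or cultures. The p-values therefore reflect the variation among these 6 libraries alone, which may be technical, and genotype and culture cannot be told apart. RNA-seq levels are in FPKM, fragments scaled by gene length and sequencing depth, which lets levels of different genes be set side by side.

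TGF-beta is secreted in an inactive form. Each ligand is cut from its propeptide but stays folded inside it, and this latent complex is usually bound through the propeptide to a latent TGF-beta binding protein, which ties it to fibrillin microfibrils and other matrix until integrins, proteases or thrombospondin release it. The free ligand joins the serine/threonine kinase receptors TGFBR2 and TGFBR1, with TGFBR3 (betaglycan) as a co-receptor that TGF-beta 2 in particular depends on, and the signal passes to the nucleus through SMAD2, SMAD3 and SMAD4. In bone, TGF-beta is stored in the matrix, recruits stromal progenitors and drives matrix synthesis and contractile genes.

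Glrx2, which encodes glutaredoxin 2 (Grx2), a mainly mitochondrial thiol-disulfide oxidoreductase, checked the labels: the wild type libraries had 3.57, 3.74 and 3.54 FPKM, and the knockout libraries 0.0046, 0 and 0 FPKM. Whole reads worked back from the FPKM values gave depths of 40797879 to 41794919 reads per library. Within groups, chi-square per gene against counting noise ran from 4.19 to 27.9, and 2 libraries, replicate 2 of wild type and replicate 1 of knockout, differed most from the others of their groups. Of 12 stromal markers, all were in the table, 6 rose and 5 fell. Their summed level was 6964 to 7965 FPKM in wild type and 4592 to 5317 FPKM in knockout libraries, most of it Col1a1 and Col1a2. Thy1 rose from 11.8 to 167 FPKM and Ly6a from 57.5 to 362 FPKM on average, while Lepr, a marker of perivascular marrow stroma, fell from 3.83 to 0.0351 FPKM. The summed level of 10 osteoblast markers was 1410 to 1571 FPKM in wild type and 619 to 655 FPKM in knockout, and 7 of 7 tested fell, among them Alpl, alkaline phosphatase of mineralizing cells (from 105 to 3.66 FPKM), and Ibsp, bone sialoprotein (from 107 to 0.487 FPKM). Spp1 made up most of the osteoblast sum (from 1164 to 616 FPKM on average). Bglap, Dmp1 and Phex were low in both genotypes, with means of at most 0.220 FPKM. Other cell types left transcripts too. The summed level of 10 macrophage markers was 1495 to 1636 FPKM in wild type and 2558 to 3447 FPKM in knockout (9 rose, and C1qa did not pass). For 10 neutrophil markers it was 917 to 2660 FPKM and 4.38 to 6.79 FPKM (8 of 8 tested fell, and Ly6g and Retnlg were listed at 0 in all knockout libraries). For 10 endothelial markers it was 25.98 to 31.5 FPKM and 5.08 to 5.81 FPKM (6 of 7 tested fell, and Tie1 and Cldn5 were listed at 0 in all knockout libraries). The endothelial marker Vwf did not pass, and Tek, not tested, was higher in knockout (from 0.265 to 0.609 FPKM on average). For 6 megakaryocyte and platelet markers the summed level was 122 to 162 FPKM and 147 to 182 FPKM, mostly Pf4, with Gp9 listed at 0 in all knockout libraries. The 4 lymphocyte and 4 erythroid markers in the table summed to at most 0.624 and 0.379 FPKM in any library. Lyz2 made up most of the macrophage sum, and S100a8 and S100a9 most of the neutrophil sum in wild type. Macrophages and platelets are themselves sources of TGF-beta 1. The part of these cells in the results below was not tested, and in bulk RNA fewer cells of a type and less RNA per cell cannot be told apart.

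Of the 10 genes, 6 differed between genotypes. Knockout cells held more Ltbp2, Ltbp3, Ltbp4 and Tgfbr3 and less Tgfb2 and Ltbp1, while Tgfb1, Tgfb3, Tgfbr1 and Tgfbr2 did not pass the test. The test was limma with trend on log2(FPKM + 1), fitted over the 11083 genes with a mean of at least 1 FPKM, two-sided, with Benjamini-Hochberg adjusted p under 0.05 as the threshold. All 10 genes passed the filter on low values in each genotype taken alone. Some other genes named here passed it through wild type alone, which favours calls of lower. Most tested neutrophil and endothelial markers are among them, as are the osteoblast markers Ibsp and Bglap2 (knockout means of 0.487 and 0.649 FPKM). Over all tested genes 67.4% were called, 42.7% as higher and 24.6% as lower in knockout, so 6 of 10 is near the background. Differences of at least 1 on the log2 scale were found for 5 of the 10 and for 10.02% of all tested genes. The median absolute log2 fold change was 0.93 over the 10 genes and 0.24 over all tested genes. The groups did not overlap for 8 of the 10, against 73.1% of tested genes.

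**Figure D1:**
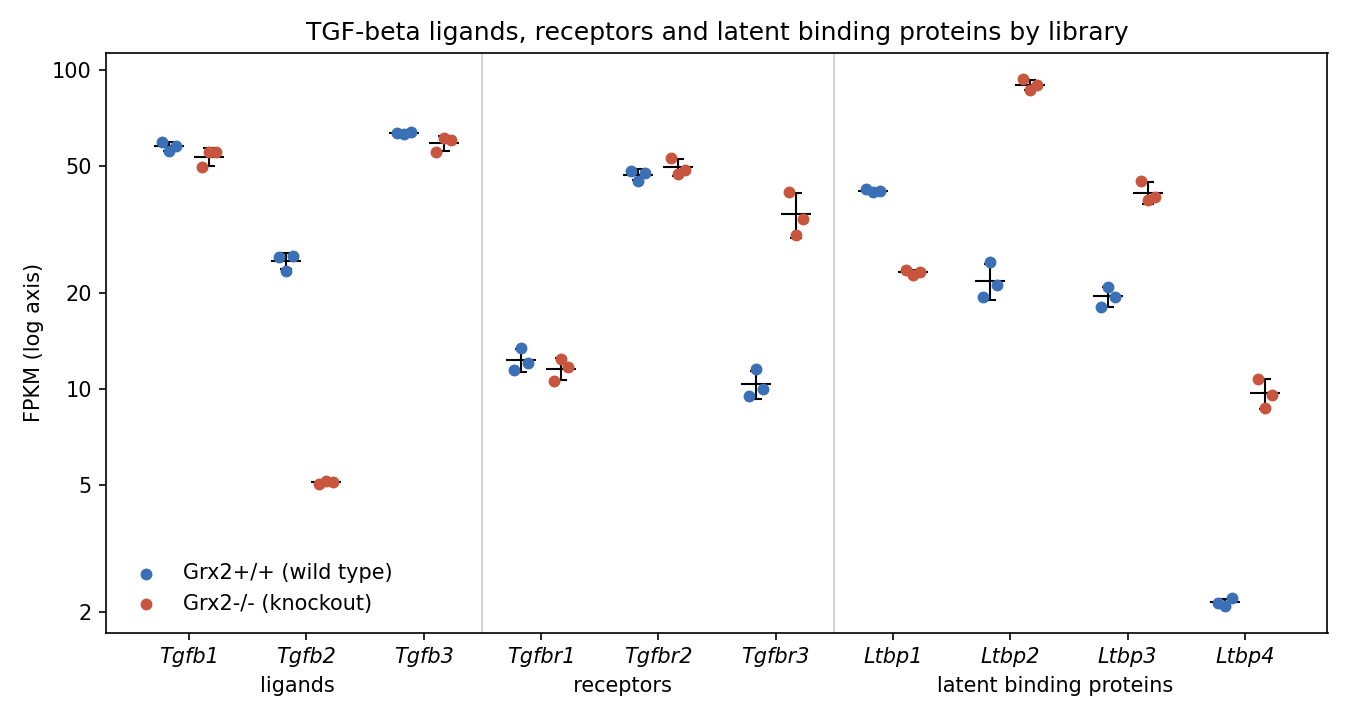
FPKM (log axis) of the 10 genes in each library. Blue points are the 3 wild type and red points the 3 knockout libraries in replicate order from left to right, and black bars give the mean and SD. Tgfb2 dropped from 25.2 to 5.10 FPKM and Ltbp2 rose from 21.9 to 90.1 FPKM, while Tgfbr1 and Tgfbr2 overlapped between genotypes.

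Sequences upstream of the genes are given for Tgfb2 and Ltbp1, the genes that fell, for Ltbp2, the gene that rose most on the log2(FPKM + 1) scale, and for Tgfb1, a ligand that did not pass. Each is the 250 bases before an annotated transcription start in RefSeq on GRCm38.p6, another build than the GRCm39 named in the submitters' processing notes. RefSeq windows were matched for 8 of the 10 genes (12 windows), without Tgfb3 and Tgfbr3. Sequences read 5′ to 3′ on the gene's strand, and capitals mark matches, on either strand, to the motifs named in the paragraph after them. For Ltbp1 the upstream of its 2 starts is shown.
Tgfb2, chr1:186705990-186706239, minus strand: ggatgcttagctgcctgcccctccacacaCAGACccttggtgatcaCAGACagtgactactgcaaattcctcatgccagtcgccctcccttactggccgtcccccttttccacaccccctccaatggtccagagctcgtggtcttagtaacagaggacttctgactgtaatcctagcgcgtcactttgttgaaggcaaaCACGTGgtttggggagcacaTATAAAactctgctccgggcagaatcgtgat
Ltbp1, chr17:75005279-75005528, plus strand: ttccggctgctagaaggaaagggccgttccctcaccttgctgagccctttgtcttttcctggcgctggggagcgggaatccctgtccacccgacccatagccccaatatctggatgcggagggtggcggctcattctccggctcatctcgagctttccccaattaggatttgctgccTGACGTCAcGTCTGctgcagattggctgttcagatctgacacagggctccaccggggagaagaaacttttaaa
Ltbp2, chr12:84876492-84876741, minus strand: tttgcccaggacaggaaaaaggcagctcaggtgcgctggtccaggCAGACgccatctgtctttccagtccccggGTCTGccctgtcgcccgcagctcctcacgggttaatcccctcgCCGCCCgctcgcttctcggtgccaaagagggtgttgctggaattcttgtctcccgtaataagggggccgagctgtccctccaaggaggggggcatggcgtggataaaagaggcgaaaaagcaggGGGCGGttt
Tgfb1, chr7:25686752-25687001, plus strand: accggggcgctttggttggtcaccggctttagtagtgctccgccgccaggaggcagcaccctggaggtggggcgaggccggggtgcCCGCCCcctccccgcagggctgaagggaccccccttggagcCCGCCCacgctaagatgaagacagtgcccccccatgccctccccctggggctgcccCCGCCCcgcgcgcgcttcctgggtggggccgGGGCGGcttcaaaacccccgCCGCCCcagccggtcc

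These windows were searched on both strands for a TATA box (TATAAA), a GC box (GGGCGG), a cyclic AMP response element (TGACGTCA), an E-box (CACGTG), an AP-1 site (TGANTCA), the SMAD binding motif (CAGAC) and the core of the antioxidant response element (TGACNNNGC). The window of Tgfb2 held a TATA box at position -31 and an E-box at -51, counted from the start site, and 2 SMAD binding motifs. TATA boxes were found in 12.4% and E-boxes in 6.02% of all 32851 windows of that length. The first Ltbp1 window held a cyclic AMP response element at -73, which 1.55% of all windows had, and 1 SMAD binding motif. The Ltbp2 window held 2 GC boxes and 2 SMAD binding motifs, found in 32.7% and 42.2% of all windows. In the Tgfb1 window there were 5 GC boxes, and its GC content was 75.2% against a median of 52.4% over all windows. The antioxidant response element core, present in 10.2% of all windows, was matched in 1 window each of Tgfbr1, Tgfbr2 and Ltbp4. AP-1 sites (6.75% of all windows) were matched in none of the 12. These matches are letters in a window and do not show that a factor binds there.

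Among the ligands, Tgfb2 was the one that fell. It encodes TGF-beta 2, the isoform best known from heart, skeletal and craniofacial development. Tgfb2 had 26.01, 23.5 and 26.1 FPKM in the wild type libraries, in replicate order, and 5.04, 5.15 and 5.10 FPKM in the knockout libraries. All wild type libraries were above all knockout libraries, and the knockout libraries lay close together. The mean fell 4.95-fold, with a log2 fold change of -2.10 ± 0.050 (SE, n = 3 per group, limma adjusted p = 2.96e-08), and 97.8% of tested genes had a smaller absolute difference. Whole reads behind these values numbered 8255 to 9213 in wild type and 1783 to 1807 in knockout.

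Tgfb1 encodes TGF-beta 1, the main isoform of bone matrix and of blood cells. Its levels were 59.8, 55.9 and 57.8 FPKM in wild type and 49.6, 55.5 and 55.6 FPKM in knockout. The groups did not overlap, but wild type replicate 2 and knockout replicates 2 and 3 lay close together. The log2 fold change was -0.11 (95% interval -0.23 to 0.0098, limma adjusted p = 0.092). Tgfb3, which encodes TGF-beta 3, an isoform of palate and tendon development, was at 63.6, 63.0 and 63.9 FPKM in wild type and at 55.4, 61.3 and 60.6 FPKM in knockout. Here too the groups did not overlap, and knockout replicate 1 was the lowest. The log2 fold change of Tgfb3 was -0.10 (95% interval -0.20 to -0.0045, limma adjusted p = 0.0615). Both calls turned on the scaling between libraries and on the weights given to them, and that of Tgfb3 also on knockout replicate 2. After median-of-ratios scaling Tgfb1 and Tgfb3 were called lower (-0.20, adjusted p = 0.0161, and -0.19, adjusted p = 0.00704), and after quantile normalization as well (-0.23, adjusted p = 0.00623, and -0.23, adjusted p = 0.00101). With weights for libraries Tgfb1 was called at -0.06 (adjusted p = 0.0371) and Tgfb3 at -0.07 (adjusted p = 0.00557), and without knockout replicate 2 Tgfb3 was called at -0.13 (adjusted p = 0.0381). Over 18 alternatives adjusted p ran from 0.00623 to 0.241 for Tgfb1 and from 0.00101 to 0.15 for Tgfb3.

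The make-up of the ligand transcripts therefore shifted in the share of Tgfb2. In wild type libraries Tgfb2 made up 17.4%, 16.5% and 17.6% of the summed FPKM of the 3 ligands, and in knockout libraries 4.58%, 4.22% and 4.21%. The share of Tgfb3 was 42.6% to 44.2% in wild type and 49.9% to 50.4% in knockout, and that of Tgfb1 39.1% to 40.0% and 45.1% to 45.9%. Tgfb3 per Tgfb1 overlapped between genotypes, at 1.10 ± 0.031 in wild type and 1.10 ± 0.014 in knockout (SD, n = 3). The ligands summed to 149, 142 and 148 FPKM in wild type and to 110, 122 and 121 FPKM in knockout. The knockout sum was lower in all 3 libraries, and lowest in knockout replicate 1. These sums and shares are descriptions without a test.

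**Figure D2:**
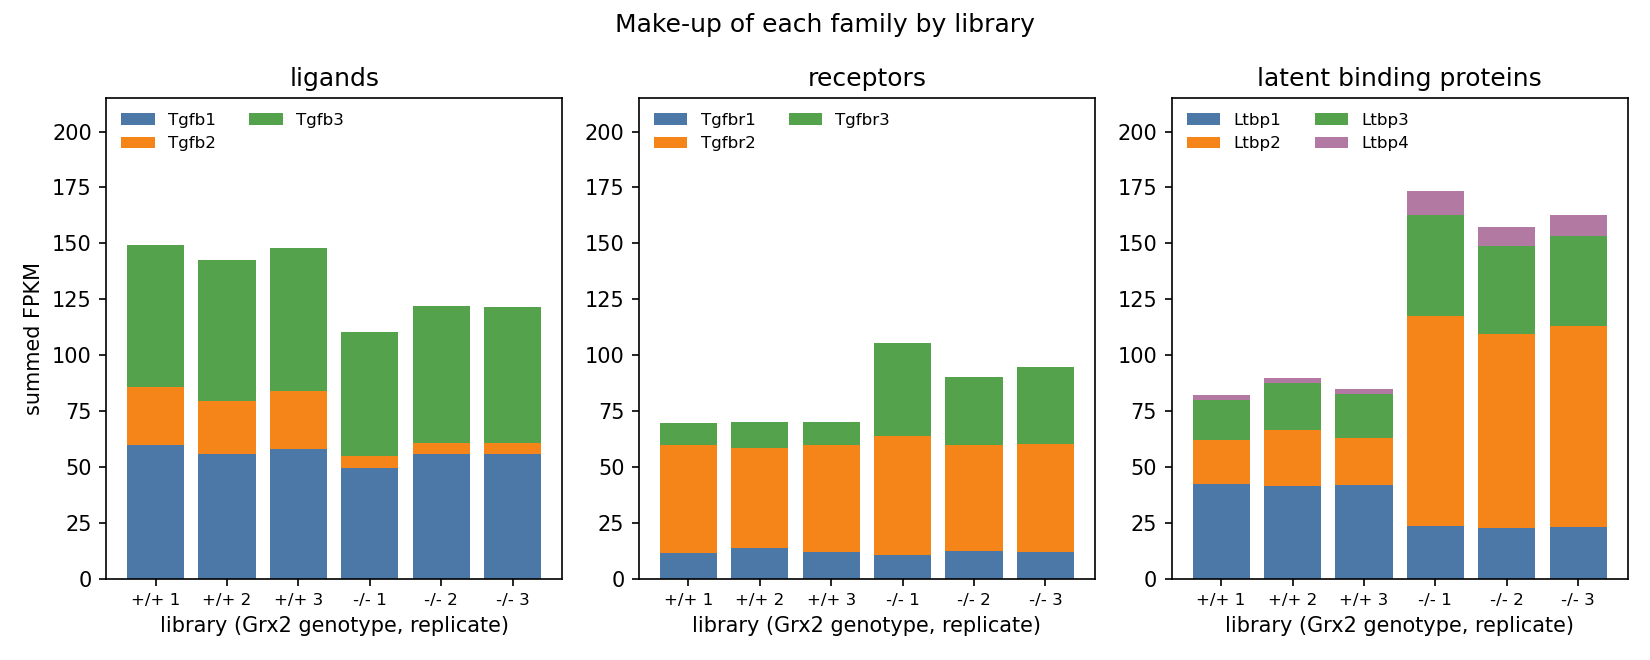
Summed FPKM of the ligands, receptors and latent binding proteins in each library, stacked by gene. Each bar is 1 library. Knockout bars are lower for ligands (110 to 122 against 142 to 149 FPKM), and higher for receptors (90.2 to 106 against 69.5 to 70.0 FPKM) and latent binding proteins (157 to 173 against 82.2 to 89.5 FPKM).

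Of the receptors, the co-receptor Tgfbr3 rose, and the signalling receptors Tgfbr1 and Tgfbr2 did not pass. Tgfbr3 encodes betaglycan, a membrane proteoglycan that presents TGF-beta to TGFBR2, binds inhibin, and in shed form can bind ligand away from cells. Its levels were 9.51, 11.5 and 10.04 FPKM in wild type and 41.6, 30.4 and 34.2 FPKM in knockout. All knockout libraries were higher, and they spread more than the wild type libraries, with replicate 1 at the top. The mean rose 3.42-fold (log2 fold change 1.67 ± 0.11, limma adjusted p = 4.82e-06).

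Tgfbr1 encodes the type I receptor kinase ALK5. It was at 11.5, 13.5 and 12.1 FPKM in wild type and at 10.6, 12.4 and 11.7 FPKM in knockout, and the groups overlapped. The log2 fold change was -0.09 (95% interval -0.25 to 0.082, limma adjusted p = 0.32). After quantile normalization it was called lower (-0.22, adjusted p = 0.0189, range over 18 alternatives 0.0189 to 0.757), and without wild type replicate 2 and knockout replicate 1 together the estimate had the other sign (0.030). Tgfbr2 encodes the type II receptor kinase that binds TGF-beta 1 and 3 directly. Its values of 48.5, 45.0 and 47.7 FPKM in wild type and 53.3, 47.3 and 48.7 FPKM in knockout overlapped as well. For Tgfbr2 the log2 fold change was 0.08 (95% interval -0.041 to 0.20, limma adjusted p = 0.207), and its sign turned after median-of-ratios scaling (-0.01), after quantile normalization (-0.03) and without both libraries that stand apart (-0.0023).

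Within a library, Tgfbr2 was the most abundant receptor transcript in both genotypes, at 64.3% to 69.8% of the summed receptor FPKM in wild type and 50.5% to 52.5% in knockout. Tgfbr3 went from 13.7% to 16.5% of the sum in wild type to 33.7% to 39.5% in knockout, and passed Tgfbr1. There were 0.221 ± 0.032 Tgfbr3 per Tgfbr2 in wild type and 0.709 ± 0.070 in knockout (FPKM ratio, SD, n = 3), without overlap. In the same libraries Tgfb2 was the ligand that was lower, so there were 2.30 ± 0.081 Tgfb1 per Tgfb2 in wild type and 10.5 ± 0.58 in knockout.

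All 4 latent binding proteins changed, 3 upward and 1 downward. Ltbp1 encodes the best known carrier of the latent complex, which secures it to the matrix. Ltbp1 was at 42.5, 41.5 and 41.8 FPKM in wild type and at 23.6, 22.7 and 23.3 FPKM in knockout. Libraries of a genotype lay close together, and the groups were far apart. The mean fell 1.80-fold (log2 fold change -0.82 ± 0.033, limma adjusted p = 2.95e-07). The gene has a long and a short form made from separate promoters, which values per gene do not separate.

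Ltbp2 encodes a family member that does not bind latent TGF-beta and is known from microfibrils and the ciliary zonule of the eye. It was at 19.4, 25.0 and 21.2 FPKM in wild type and at 93.8, 86.8 and 89.8 FPKM in knockout. Every knockout library was above every wild type library, and wild type replicate 2 was the highest of its group. The mean rose 4.11-fold (log2 fold change 2.00 ± 0.082, limma adjusted p = 3.24e-07), and Ltbp2 went from place 6 to place 1 in the order of levels of the 10 genes. Its annotated exons share 764 bases with a gene on the opposite strand, D030025P21Rik, which was at 0.167 to 1.10 FPKM. Without a stated strand setting the reads there cannot be told apart.

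Ltbp3 encodes a carrier needed in skeleton and teeth. Its levels were 18.1, 20.96 and 19.5 FPKM in wild type and 45.1, 39.1 and 40.0 FPKM in knockout, without overlap. The mean rose 2.12-fold (log2 fold change 1.04 ± 0.068, limma adjusted p = 4.13e-06). Ltbp4 encodes a carrier that binds TGF-beta 1 and takes part in elastic fibre assembly. It was the least abundant of the 10 in wild type, at 2.13, 2.09 and 2.20 FPKM, and reached 10.8, 8.73 and 9.61 FPKM in knockout. All knockout libraries were higher, by 4.53-fold on average (log2 fold change 1.76 ± 0.073, limma adjusted p = 3.46e-07). This scale understates the change of a low gene: with a pseudocount of 0.01 the log2 fold change of Ltbp4 was 2.17.

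**Figure D3:**
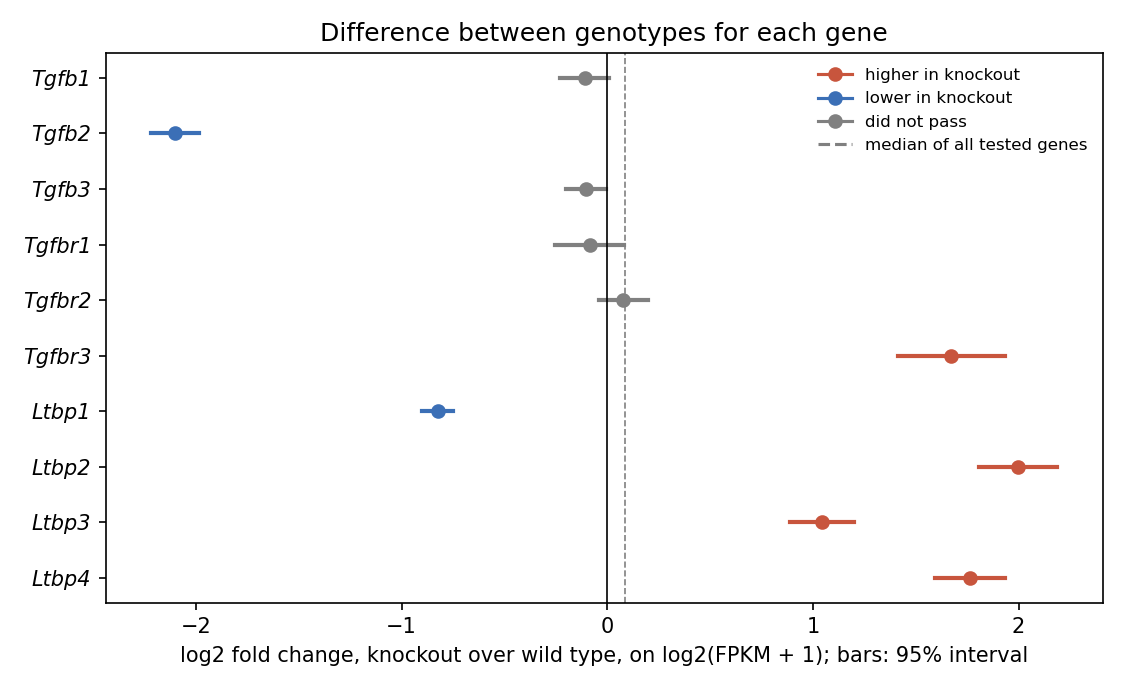
log2 fold change (knockout over wild type, on log2(FPKM + 1)) of each gene with its 95% interval from limma. The dashed line is the median of all 11083 tested genes (0.085). Intervals of Tgfb2 and Ltbp1 lie below 0, as does narrowly that of Tgfb3, which did not pass after adjustment, and those of Tgfbr3, Ltbp2, Ltbp3 and Ltbp4 lie above 0.

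The leading latent binding protein changed with genotype. Ltbp1 made up 46.3% to 51.7% of the summed FPKM of the family in wild type and 13.7% to 14.5% in knockout. Ltbp2 made up 23.7% to 28.0% in wild type and 54.1% to 55.2% in knockout. The share of Ltbp3 was 22.1% to 23.4% and 24.6% to 26.01%, and that of Ltbp4 2.33% to 2.60% and 5.55% to 6.22%. Summed over the family, wild type libraries had 82.2, 89.5 and 84.7 FPKM and knockout libraries 173, 157 and 163 FPKM. For the carriers that can bind latent TGF-beta, Ltbp1, Ltbp3 and Ltbp4, the sums were 62.8, 64.5 and 63.5 FPKM against 79.5, 70.6 and 72.9 FPKM. The family's sum rested on Ltbp2 for most of its difference: it was 1.92-fold higher in knockout with Ltbp2 and 1.17-fold higher without it. Per summed ligand FPKM, the carriers without Ltbp2 came to 0.434 ± 0.017 in wild type and 0.634 ± 0.077 in knockout, and knockout replicate 1 (0.722) was above replicates 2 and 3 (0.578 and 0.601).

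In wild type cells the order of levels was Tgfb3, Tgfb1, Tgfbr2, Ltbp1, Tgfb2, Ltbp2, Ltbp3, Tgfbr1, Tgfbr3 and Ltbp4. The ranges over libraries overlapped between Tgfb2 and Ltbp2, Ltbp2 and Ltbp3, and Tgfbr1 and Tgfbr3. In knockout cells it was Ltbp2, Tgfb3, Tgfb1, Tgfbr2, Ltbp3, Tgfbr3, Ltbp1, Tgfbr1, Ltbp4 and Tgfb2. There the ranges overlapped between Tgfb3 and Tgfb1, Tgfb1 and Tgfbr2, Ltbp3 and Tgfbr3, and Tgfbr1 and Ltbp4. Tgfb2 moved from place 5 to place 10.

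The genes also varied among replicates. The coefficient of variation ran from 0.726% (Tgfb3) to 13.0% (Ltbp2) in wild type and from 1.13% (Tgfb2) to 16.1% (Tgfbr3) in knockout. Wild type replicate 2 was the highest or the lowest of its group for 10 of the 10 genes, as was knockout replicate 1. In a group of 3 libraries, 2 are extreme for each gene, and the count was 7 for wild type replicate 1, 3 for wild type replicate 3, 9 for knockout replicate 2 and 1 for knockout replicate 3. The median absolute deviation from the group mean was 0.05, 0.08 and 0.02 in wild type replicates 1, 2 and 3 and 0.10, 0.06 and 0.02 in those of knockout, on the log2 scale. Wild type replicate 2 was highest for Tgfbr1, Tgfbr3, Ltbp2 and Ltbp3 and lowest for the 3 ligands, Tgfbr2, Ltbp1 and Ltbp4. Knockout replicate 1 was highest for Tgfbr2, Tgfbr3 and the 4 latent binding proteins and lowest for the 3 ligands and Tgfbr1. Both libraries thus had the lowest ligand levels and the highest Tgfbr3, Ltbp2 and Ltbp3 of their groups. Their marker sums did not deviate alike throughout. Knockout replicate 1 had the lowest summed macrophage markers of its group (2558 FPKM) and wild type replicate 2 the highest (1636 FPKM). For stromal markers, knockout replicate 1 was highest (5317 FPKM) and wild type replicate 2 lowest (6964 FPKM). Both were highest of their groups for neutrophil markers, at 6.79 FPKM in knockout replicate 1 and 2660 FPKM in wild type replicate 2. Without these 2 libraries, 4 of the 10 genes were higher and 2 lower, and the log2 fold changes were -2.14 for Tgfb2, 1.63 for Tgfbr3, -0.84 for Ltbp1, 2.07 for Ltbp2, 1.03 for Ltbp3 and 1.68 for Ltbp4.

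Genes whose levels followed a ligand most closely over the 6 libraries were found by Pearson's r of log2(FPKM + 1), as a description. Most of the variation of Tgfb2 lay between the groups of libraries. Tgfb1 and Tgfb3 varied much within knockout too, with replicate 1 the lowest library (49.6 and 55.4 FPKM). For Tgfb2, r was over 0.99 for 552 tested genes, and the closest were Arg1 (arginase 1, from 11.5 to 0.12 FPKM), Ccn4 (a matricellular protein, from 107 to 19.1 FPKM) and Chd3 (a chromatin remodeller, from 50.2 to 12.8 FPKM). For Tgfb3 the closest were Gadd45b (r = 0.994), a stress-induced gene that TGF-beta can also raise, Lbh (r = 0.989) and Cnn1, calponin of smooth muscle (r = 0.986). Tgfb1 was followed most closely by Dipk1a (r = 0.994), the macrophage receptor gene Siglec1 (r = 0.987, from 1.53 to 1.37 FPKM) and Them6 (r = 0.987). Tgfb1 and Tgfb3 each had r over 0.99 with 1 tested gene.

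Other genes of the pathway were taken from 5 lists, which together changed in both directions. Of all their tested members 23 rose and 37 fell, against 4737 that rose and 2728 that fell among all tested genes. Median-of-ratios scaling gave 19 and 39 for the lists and 3797 and 3571 for all genes, and quantile normalization 20 and 40, and 3413 and 3945. Quantile normalization moved the median of all tested genes by -0.11, from 0.085 to -0.026.

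Genes that release the latent complex or anchor it in the matrix were mostly lower, in the same libraries in which the osteoblast markers were lower. Of 16 tested, 4 rose (Nrros, Fbn2, Lrrc32 and Fbn1), 11 fell and 1 (Tgm2, a crosslinking transglutaminase) did not pass, with a median log2 fold change of -0.51, against 0.085 for all tested genes. Itgb6 and Itgb8, integrin subunits that open the latent complex, were below the filter. Bmp1, a protease that cuts procollagen and Ltbp1, fell from 123 ± 7.31 to 32.3 ± 2.02 FPKM (SD, n = 3), and Itgb3, integrin beta 3, from 12.7 ± 1.04 to 2.47 ± 0.19 FPKM. Nrros, which holds latent TGF-beta 1 on macrophages and microglia, rose from 3.66 ± 0.263 to 9.74 ± 0.278 FPKM in libraries in which 9 of 10 macrophage markers rose. Fbn2, fibrillin 2 of microfibrils, rose from 5.51 ± 0.339 to 13.2 ± 0.381 FPKM. Mmp9, a gelatinase that neutrophils and osteoclasts make in quantity, had the largest log2 fold change of the list (-3.47). It was named after its value was seen and, at 0.660 FPKM on average in knockout, passed the filter through wild type alone. It fell in libraries in which 8 of 8 tested neutrophil markers fell, and their part in it was not tested.

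Proteoglycans and secreted proteins that bind or degrade TGF-beta moved either way: of 8, 5 rose (Dcn, Cd109, Aspn, Bgn and Vasn) and 3 fell (Htra3, Htra1 and Fmod), with a median of 0.25. Dcn, decorin, a small proteoglycan that binds TGF-beta, rose from 10.1 ± 2.22 to 130 ± 16.2 FPKM. Cd109, a membrane protein that binds TGF-beta 1 and promotes receptor turnover, rose from 20.99 ± 1.55 to 49.2 ± 5.14 FPKM. Htra3 and Htra1, secreted serine proteases that can dampen TGF-beta signalling, fell from 20.1 ± 1.72 to 4.57 ± 0.422 FPKM and from 137 ± 10.8 to 39.5 ± 3.11 FPKM. Of 6 co-receptors and receptor partners, 4 rose (Nrp1, Acvrl1, Tgfbrap1 and Bambi) and 2 fell (Fkbp1a and Eng), with a median of 0.24. Nrp1, a co-receptor for semaphorins and VEGF that also binds TGF-beta, rose from 13.1 ± 0.69 to 32.0 ± 1.61 FPKM. Acvrl1, the type I receptor ALK1, rose from 5.29 ± 0.136 to 8.64 ± 0.198 FPKM. In the same libraries 6 of 7 tested endothelial markers fell, most of them passing the filter through wild type alone. Vwf did not pass, and Tek, below the filter, was higher in knockout (from 0.265 to 0.609 FPKM on average). The part of endothelial cells in the level of Acvrl1 was not tested. Fkbp1a, which binds TGFBR1 and keeps it inactive, had a log2 fold change of -0.26, and Tgfbrap1, a receptor-associated chaperone, one of 0.28.

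SMAD proteins and their partners were lower in more cases than higher: of 14, 3 rose (Ski, Smad6 and Smurf1), 8 fell and 3 did not pass (Ldlrad4, Smad2 and Smad7), with a median of -0.17. Of the 11 with a mean of at least 5 FPKM, 3 rose and 6 fell. Pmepa1, a feedback inhibitor that TGF-beta itself induces, fell from 49.2 ± 0.388 to 19.9 ± 1.33 FPKM. Smurf2, a ubiquitin ligase that targets the receptors, fell from 34.7 ± 1.39 to 14.9 ± 0.968 FPKM, and Tgif2, a SMAD co-repressor, from 2.22 ± 0.178 to 0.645 ± 0.0389 FPKM. Tgif2 was under 1 FPKM in every knockout library and passed the filter through wild type alone. Ski, another co-repressor, rose from 36.8 ± 0.635 to 57.3 ± 2.45 FPKM. The signal carriers themselves, named after their values were seen, differed less. Smad3 fell (-0.39, limma adjusted p = 2.23e-04) and Smad4 fell slightly (-0.13, limma adjusted p = 0.0211), though Smad4 lost its call without wild type replicate 3 (adjusted p = 0.0872) and without knockout replicate 2 (adjusted p = 0.0659, range over 18 alternatives 5.16e-04 to 0.0872). Smad2 (0.13, limma adjusted p = 0.0826) and the inhibitory Smad7 (-0.07, limma adjusted p = 0.355) did not pass, though Smad2 was called with array weights (0.09, adjusted p = 0.0159) and with voom (0.15, adjusted p = 0.0357), and Smad7 was called lower after quantile normalization (-0.18).

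**Figure D4:**
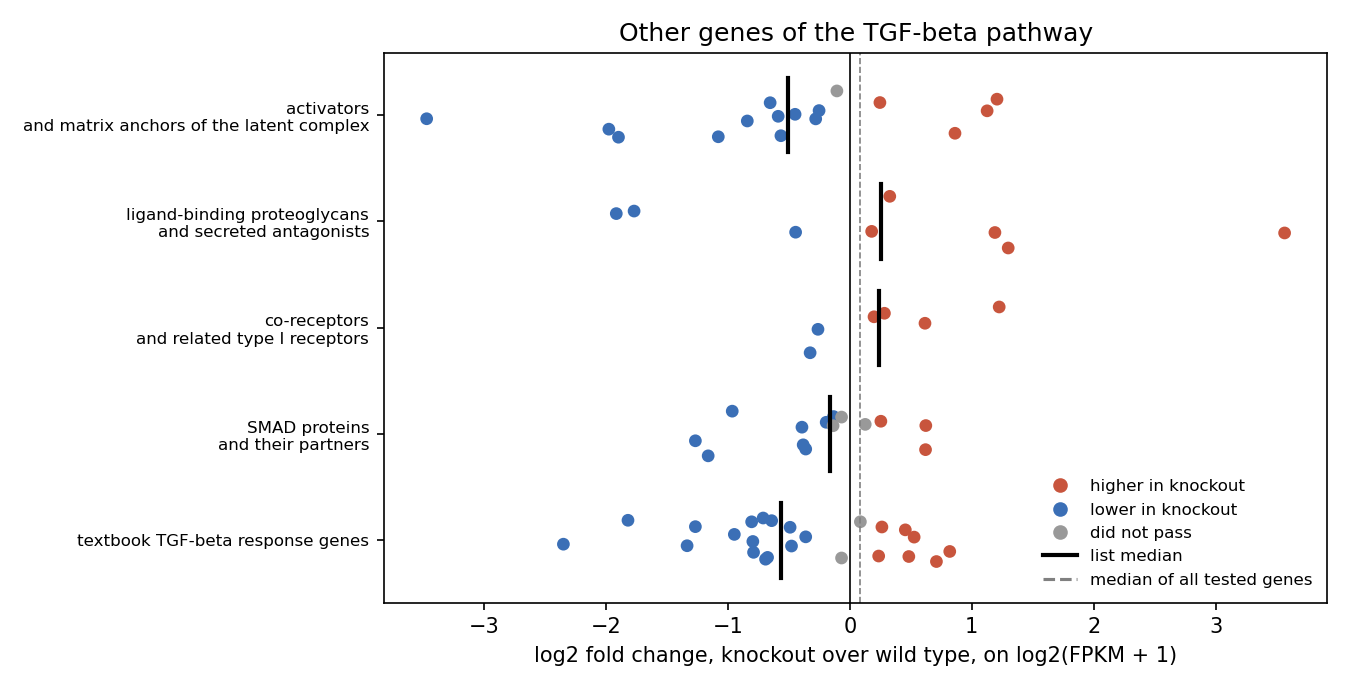
log2 fold change of every tested gene of the 5 pathway lists, by list. Each point is 1 gene, coloured by its call, thick bars are list medians and the dashed line is the median of all tested genes. Medians lie between -0.57 (response genes) and 0.25 (proteoglycans and antagonists).

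Textbook response genes of TGF-beta were lower in more cases than higher. Of 24 tested, 7 rose, 15 fell and 2 (Lox and Smad7) did not pass, with a median of -0.57, and 3 of them (Pmepa1, Skil and Smad7) are also on the SMAD list. Of the 23 with a mean of at least 5 FPKM, 7 rose and 14 fell. The 15 genes that fell did so in libraries in which 7 of 7 tested osteoblast markers fell. Of these markers, Ibsp and Bglap2 passed the filter through wild type alone. The summed level of all osteoblast markers, mostly Spp1, was 1410 to 1571 FPKM in wild type and 619 to 655 FPKM in knockout. The part of osteoblast-lineage cells in the list was not tested. Tnc, tenascin C, fell from 357 ± 32.1 to 69.0 ± 0.787 FPKM, and Il11, interleukin 11, from 3.98 ± 0.402 to 0.406 ± 0.0403 FPKM. Il11 passed the filter through wild type alone. Tsc22d1, a transcription regulator first found as a TGF-beta-stimulated clone, rose from 20.3 ± 0.837 to 33.9 ± 1.55 FPKM. Further genes were named after their values were seen. Acta2, smooth muscle actin, fell from 1558 ± 73.9 to 629.9 ± 154 FPKM and Ccn2, connective tissue growth factor, from 487 ± 10.04 to 283 ± 41.0 FPKM. The lists hold genes that other pathways regulate too.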

How the data were processed

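FPKM values, 1 column per library, were deposited by the authors and used without further scaling. The submitters' processing notes name GRCm39 as the build, HISAT2 and HTSeq as tools, and R 3.2.0. Annotation, filters and strand setting are not stated there. FPKM does not correct for a shift in composition between libraries. Per the labels' protocols, RNA was extracted with TRIzol and libraries were made with a VAHTS Universal V6 kit.

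Whole reads were worked back for 22982 genes (99.99%, tolerance 1e-06 reads), with gene lengths of 2197 (Tgfb1) to 8838 bases (Ltbp2) for the genes described; levels of different genes rest on those lengths. The log2(FPKM + 1) values of genes with a mean of at least 1 FPKM went into limma 3.58.1 (R 4.3.3, eBayes with trend), and p-values were adjusted over all 11083 genes. Tested on simulated reads of 10892 genes, the fit found 45 of 50 genes with a 1.25-fold change and 50 of 50 with a 1.5-fold change, and made 13 false calls. The simulated spread beyond counting noise was the same for all genes (dispersion 0.001121, from wild type). No library stood apart, and most genes were unchanged, while 67.4% of genes were called in the data. These counts therefore do not carry over to the data. Count tests were not used. Motifs were matched in RefSeq windows, and exon overlaps in GENCODE M21 (GRCm38). Figures were drawn with matplotlib 3.10.9.

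Pathway genes named are the 4 of each list with the smallest p among those called, and others only where said; some results are not reported here. The genes, lists and tests were chosen with earlier results of these data known. Alternatives were pseudocounts of 0.1 and 0.01, no filter, a mean of at least 5 FPKM, median-of-ratios scaling, quantile normalization, no trend, robust estimation (statmod 1.5.0), array weights, a replicate block, voom on the whole reads, each library left out, and the pair that stands apart left out.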

Additional observations from a re-analysis of the deposited data

How the results depend on the processing

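The calls of Tgfb2, Tgfbr3, Ltbp1, Ltbp2, Ltbp3 and Ltbp4 kept their direction and passed in all 18 alternatives. Their log2 fold changes ran from -2.30 to -2.08, 1.54 to 1.77, -0.95 to -0.81, 1.88 to 2.09, 0.92 to 1.09 and 1.65 to 2.18, and the highest adjusted p was 2.16e-04 (Tgfbr3, limma with no filter). The number of the 10 genes called lower was 2 as reported, 4 with median-of-ratios scaling, 5 with quantile normalization and 4 with array weights. It was 3 without knockout replicate 2, and the cause of these differences was not tested. Estimates that did not pass changed sign for Tgfbr2 (-0.0104 with median-of-ratios scaling, -0.0327 with quantile normalization, -0.0023 without both libraries that stand apart), Tgfbr1 (0.030 without those libraries) and Smad7 (0.0098 with array weights). The fold of the summed ligands, knockout over wild type, was 0.804 as deposited and 0.755 after median-of-ratios scaling.

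Same-numbered libraries deviated together with correlations of 0.107, 0.124 and 0.0199, and the labels give no source that same-numbered libraries share, so the numbers were not taken to pair them. Whether they do is not known. With the replicate number as a block, 4771 genes were higher and 2791 lower, and of the 10 genes 4 and 2. The reads behind each of the 10 genes numbered at least 530 in a library (Ltbp4), and there were 3 libraries per group, which limits the precision of every spread given.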
